A study of Mus musculus with 2 samples.

Results

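Hematopoietic stem cells (HSCs) of mouse bone marrow were sequenced as single cells, and the cells described here are those richest in transcripts of 6 genes used to mark the long-term stem cell: Procr, Fgd5, Slamf1, Hoxb5, Neo1 and Clec1a. In each library, the cells kept were barcodes with at least 500 UMIs (unique molecular identifiers, each standing for 1 captured transcript), of which mitochondria encoded no more than 20%. The UMIs of the 6 genes were divided by the total of the cell, and the top 10% of cells by this share, ties included and with a share above 0, are called members. They numbered 341 of 3402 kept cells and of 10809 barcodes in all. Aliquot 1 gave 158 members of 1574 kept cells and aliquot 2 gave 183 of 1828.

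All cells came from lineage-depleted bone marrow, from which cells carrying B220, Gr1, Ter119, CD4 or CD8 had been removed with magnetic beads. Cells of Mds1-GFP/+ Flt3-Cre mice were sorted on DAPI-GFP+ alone and mixed with SLAM LT-HSCs (long-term HSCs) of wild type mice, sorted as DAPI-Lin-cKit+Sca+CD48-CD150+. In these mice GFP stands at the Mds1 locus in a cassette flanked by loxP sites, and the cassette is lost once Flt3-Cre has been active; the labels give neither the age of the mice nor how many were pooled, and they name no strain for the wild type mice. The mixture was 1 pool, and its 2 aliquots were run as separate inDrops libraries, so the pool is the only biological sample (n = 1) and the aliquots repeat the technical steps. The submitters state 46 GFP cells after their processing and made no use of the others. No statistical test between members and the other kept cells is possible with 1 pool. The 95% intervals given for ratios (exact conditional binomial), levels (exact Poisson) and shares (exact Clopper-Pearson) cover counting error only.

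HSCs divide rarely and keep the capacity to rebuild all blood lineages, and sorting schemes for them rest on surface proteins and reporter genes. Procr encodes the endothelial protein C receptor (EPCR, CD201), Slamf1 the SLAM receptor CD150, Neo1 the netrin and repulsive guidance molecule receptor neogenin, and Clec1a a C-type lectin-like receptor. Fgd5, an exchange factor for the small GTPase CDC42, and Hoxb5, a homeodomain transcription factor, are intracellular and are known in this tissue as reporter genes for long-term HSCs. So 4 of the 6 genes encode surface proteins. The sort of the wild type cells had already used CD150, the product of Slamf1, as well as KIT and the Sca-1 product of Ly6a.

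The sequences before the start of 3 of the surface genes are shown because the cells were chosen by these transcripts; they are credited to RefSeq (build GRCm38.p6), run 5′ to 3′ on the strand of the gene and stop before the annotated start in both RefSeq and GENCODE vM21. Procr lies on chromosome 2 (155751117 to 155755471, plus strand), Slamf1 on chromosome 1 (171767127 to 171801184, plus strand) and Neo1 on chromosome 9 (58874687 to 59036441, minus strand), all protein-coding in GENCODE vM21. Capitals mark a match on either strand to 1 of 4 motifs: AGGAAG for ETS factors, AGATAA for the factors of the GATA family, TGTGGT for RUNX factors and CAGCTG for E-box factors. No matches overlap here.
Procr, chr2:155750967-155751116: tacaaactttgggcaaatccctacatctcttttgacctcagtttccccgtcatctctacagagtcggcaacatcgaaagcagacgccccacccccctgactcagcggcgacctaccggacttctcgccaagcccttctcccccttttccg
Slamf1, chr1:171766882-171767126: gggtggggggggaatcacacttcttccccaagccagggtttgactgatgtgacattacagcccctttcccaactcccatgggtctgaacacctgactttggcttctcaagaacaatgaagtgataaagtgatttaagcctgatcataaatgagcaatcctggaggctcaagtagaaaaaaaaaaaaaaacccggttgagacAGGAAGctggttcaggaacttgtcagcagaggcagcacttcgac
Neo1, chr9:59036442-59036691: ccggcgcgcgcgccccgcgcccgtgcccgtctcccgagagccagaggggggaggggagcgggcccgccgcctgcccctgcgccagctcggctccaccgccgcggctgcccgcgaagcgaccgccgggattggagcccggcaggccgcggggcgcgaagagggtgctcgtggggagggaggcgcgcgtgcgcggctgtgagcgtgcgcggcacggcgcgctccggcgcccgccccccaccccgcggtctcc
The Slamf1 stretch held 1 ETS match, a motif found in 29.0% of the 32851 promoter windows cut to the same 245 bases. None of the motifs was found in the other two stretches. The GC content was 56.0% before Procr, 47.3% before Slamf1 and 83.2% before Neo1. A match is a description of these letters only.

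Kept cells held 1640734 UMIs in aliquot 1 and 4027333 in aliquot 2. Members were shallower than the other kept cells, with a median of 785 against 972 UMIs in aliquot 1 and 1789 against 2105 in aliquot 2. The 2147 and 8662 barcodes equal the cell numbers in the labels, and the libraries shared 461 barcodes. Of these, 55 were kept in both, 40 members carried a shared barcode, and 1 barcode was a member in both. Over 2000 genes, profiles under the same kept barcode had a median correlation of 0.04, against -0.00158 for other pairs. Scrublet marked 9 and 16 kept cells as doublets (0.572% and 0.875%), and none was a member. Granulocyte-rich cells, which should lack the 6 genes, gave a background for free RNA: 1 of 51 held such a UMI (1.96%, median 1988 UMIs), against 818 of the 3351 other kept cells (24.4%, median 1412 UMIs). Barcodes under 200 UMIs held the 6 genes at 98.9 and 348 CPM (counts scaled to a total of 1000000 UMIs) in aliquots 1 and 2, against 238 and 243 CPM in kept cells.

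The levels of the 6 genes set the membership and are given as a description. In aliquot 1 the share at the threshold was 0.116%, with 1 UMI among 860 just inside and 1 among 861 just outside. In aliquot 2 it was 0.102%, with 2 UMIs among 1961 just inside and 2 among 1963 just outside. In aliquot 1, 95 of 158 members (60.1%) rested on a single UMI, so a single transcript and the depth of the cell decided their place. In aliquot 2 this held for 19 of 183 (10.4%). In both aliquots together, 253 members carried 1 of the genes, 74 carried 2 and 14 carried 3 or more.

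Procr dominated the choice. It gave 63.0% of the 6-gene UMIs in members and was seen in 254 of 341, or 74.5%. Its level was 1129 and 1111 CPM in members of aliquots 1 and 2, against 60.3 and 62.4 CPM in the other kept cells. Clec1a followed with 47 member cells and Fgd5 with 50, at 196 and 167 CPM in members over both aliquots, against 9.97 and 11.7 CPM in the others. Slamf1 was seen in 35 member cells, Hoxb5 in 31 and Neo1 in 27. Their levels were 103, 85.9 and 103 CPM in members and 12.7, 6.90 and 5.37 CPM in the other kept cells. Pairs were few: Procr shared 21 member cells with Fgd5, 19 with Clec1a, 17 with Neo1, 14 with Hoxb5 and 13 with Slamf1, and the largest pair without Procr was Fgd5 with Slamf1 in 6.

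A reading of the markers that the choice does not fix came from leaving each gene out, choosing the top cells by the other 5, and comparing the left-out gene between them and the rest at 500 UMIs per cell. Neo1, left out, stood at 63.3 and 32.8 CPM in the chosen cells of aliquots 1 and 2, against 8.47 and 14.6 CPM in the rest, from 8 UMIs in 7 chosen cells. Its ratio was 3.99 (95% interval 1.50 to 9.64). Procr, left out, stood at 250.0 and 240.4 CPM, against 166 and 162 CPM in the rest, from 38 UMIs, with a ratio of 1.49 (1.03 to 2.11). Both were higher in the chosen cells of both aliquots. The intervals of the other ratios included 1: 1.54 (0.529 to 3.70) for Slamf1, 1.34 (0.510 to 2.98) for Fgd5, 1.08 (0.208 to 3.53) for Hoxb5 and 0.997 (0.309 to 2.50) for Clec1a. These rested on 3 to 7 UMIs in chosen cells, and the 8 UMIs of Neo1 were hardly more. Over the 14 alternatives that gave a value, the Neo1 ratio ran from 2.25 to 7.47 and its interval stayed above 1 in 10. The exceptions were at least 1000 UMIs per cell (0.613 to 8.15), another thinning (0.904 to 9.42), aliquot 2 alone (0.407 to 8.33) and no barcodes found in both libraries (0.761 to 7.45). The Procr ratio ran from 1.31 to 1.84, with the interval above 1 in 9 of 14. It included 1 with at least 1000 UMIs per cell (0.795 to 2.09), with the top 20% of cells (0.914 to 1.83), without cells with a GFP UMI (0.967 to 2.03) and in each aliquot alone. Slamf1 depended on the setting: its ratio was 3.32 (1.69 to 6.43) with the top 20% of cells and 3.30 (1.17 to 8.20) with at least 1000 UMIs per cell, but 0.561 (0.0651 to 2.20) under another thinning. Fgd5 had an interval above 1 in 1 alternative, with all UMIs and no thinning (1.82, 1.06 to 2.97), where Neo1 was at 4.20 (2.38 to 7.12) and Procr at 1.84 (1.51 to 2.22). Hoxb5 and Clec1a had none.

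**Figure D1:**
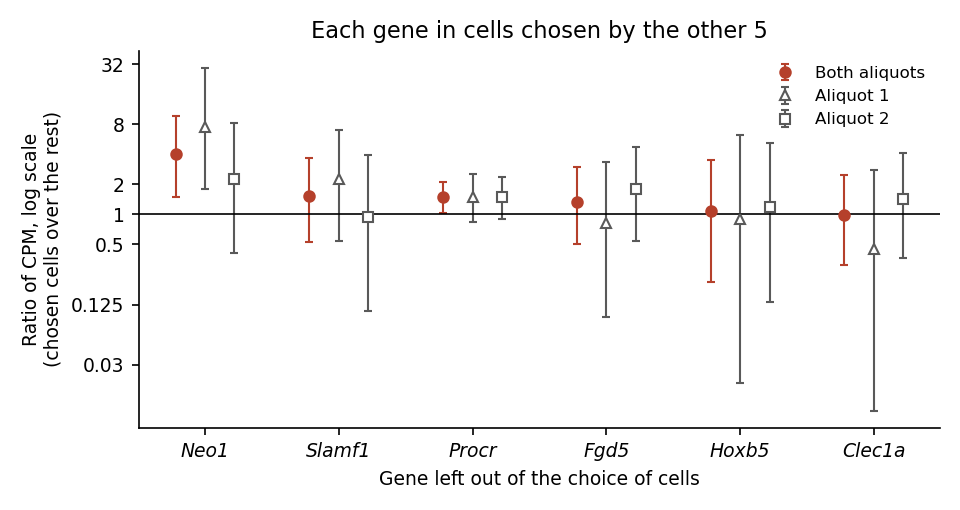
Ratio of CPM, on a log axis, of each marker gene between cells chosen by the other 5 genes and the rest of the kept cells, at 500 UMIs per cell. Red points pool both aliquots, open triangles and squares are aliquots 1 and 2, and bars are exact 95% intervals. The pooled interval lies above 1 for Neo1 (1.50 to 9.64) and Procr (1.03 to 2.11) and spans 1 for the other 4 genes.

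For the rest of the transcriptome, every cell was thinned at random to 500 UMIs with the 6 genes and the GFP feature removed, and summed counts were compared as the ratio of CPM in members to CPM in the other kept cells. A gene was tested for a call when at least 20 UMIs were observed or expected in members, and it was called higher at 1.5-fold or more, or lower at the inverse of that, with 1 direction in both aliquots. Of 1850 genes, 158 (8.54%) were called higher and 184 (9.95%) lower. Over 20 further thinnings the counts were 138 to 167 higher and 161 to 193 lower. Genes at least 1.5-fold higher in aliquot 2 (85 genes) were above 1 in aliquot 1 in 78.8% of cases, against 46.8% of all 759 genes measured. Genes at least 1.5-fold lower in aliquot 2 (75 genes) were below 1 in aliquot 1 in 88.0% of cases, against 53.2% of all. Read the other way, 61 genes at least 1.5-fold higher in aliquot 1 were above 1 in aliquot 2 in 67.2% of cases, against 45.9% of all 675 genes measured, and 75 genes at least 1.5-fold lower were below 1 in 81.3%, against 54.1% of all. The extremes shrank on re-reading: the median ratio of the 85 genes was 1.74 in aliquot 2, where they were picked, and 1.18 in aliquot 1, and that of the 61 genes was 1.67 in aliquot 1, where they were picked, and 1.11 in aliquot 2.

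Transcription factors of HSCs were mostly higher in members. Of 33 listed, 26 had at least 10 UMIs observed or expected, and 23 of these lay above 1, where 53.2% of all 4175 genes of that minimum did. Their median log2 ratio was 0.43 (over 20 further thinnings 0.27 to 0.47), against 0.04 for all genes. Of the 21 tested for a call, 6 were called higher and none lower, against 8.54% and 9.95% of all 1850 genes. The largest ratio was that of Nkx2-3, a homeodomain factor known from spleen and gut vasculature, at 165 and 175 CPM in members of aliquots 1 and 2 and 86.2 and 48.6 CPM in the other kept cells, a ratio of 2.58 (1.64 to 3.93). The forkhead factors that hold HSCs in quiescence were also called: Foxo1 stood at 139 and 120 CPM in members, against 42.4 and 69.3 CPM in the others (ratio 2.27, 1.35 to 3.66). Foxo3 stood at 241 and 131 CPM in members, against 121 and 108 CPM in the others (1.59, 1.05 to 2.34). Its ratio ran from 1.04 to 1.72 over further thinnings, and the median of 1.28 lay under the 1.5-fold used for a call. Both genes were higher in members of both aliquots.

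Mllt3, a chromatin reader that maintains human HSCs in culture, stood at 380 and 273 CPM in members, against 198 and 171 CPM in the other kept cells (ratio 1.76, 1.29 to 2.35). Gata3, a zinc finger factor with roles in T cells and in HSC cycling, had a ratio of 1.63 (1.03 to 2.49). Hlf, a PAR bZIP factor that marks the most immature cells of the mouse hierarchy, carried the most UMIs of the list. It stood at 1595 and 885 CPM in members, against 880 and 753 CPM in the others, a ratio of 1.496 (1.29 to 1.73) that lay just under the fold used. The aliquots differed here: Hlf was 1595 CPM in members of aliquot 1 and only 885 CPM in members of aliquot 2. Of other core factors, Meis1 had a ratio of 1.02 (0.768 to 1.32), Gata2 1.06 (0.828 to 1.34) and Lmo2 1.01 (0.818 to 1.23). Further from 1 were Lyl1 at 1.49 (0.911 to 2.32), Erg at 1.36 (0.996 to 1.81) and Tal1 at 0.672 (0.404 to 1.06), each with an interval that included 1. Mecom, whose locus carries the reporter, stood at 165 and 230 CPM in members and 172 and 156 CPM in the others (1.22, 0.827 to 1.75). The median of the list was 0.23 with aliquot 2 alone, 0.51 with aliquot 1 alone, 0.26 when Procr was dropped from the choice and 0.21 when Procr alone chose the cells.

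The 4 measured HOX genes other than Hoxb5 were all above 1, with a median log2 ratio of 0.62. Hoxa5 stood at 152 and 153 CPM in members, against 97.5 and 63.2 CPM in the other kept cells (ratio 1.93, 1.21 to 2.97), and was the only one tested and called. Hoxb4, a neighbour of Hoxb5 in its cluster, had a ratio of 1.67 (0.793 to 3.22), Hoxa10 1.42 (0.702 to 2.62) and Hoxa9 1.34 (0.754 to 2.24). With all UMIs and no thinning, Hoxb4 was seen in 19 members and 103 other kept cells at 55.0 and 31.5 CPM (ratio 1.75, 1.10 to 2.68). Hoxb2, measured the same way, stood at 46.2 CPM in members, against 18.99 CPM in the others (2.43, 1.44 to 3.93).

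Among other surface, adhesion and transporter genes of HSCs, 15 of 22 measured genes lay above 1, where 53.2% of all genes did. Their median log2 ratio was 0.32, and 5 of 17 tested were called higher, against 8.54% of all 1850 genes. Ly6a, the gene of Sca-1, stood at 544 and 361 CPM in members, against 249 and 222 CPM in the other kept cells (ratio 1.90, 1.46 to 2.44). Members were higher in both aliquots, although every wild type cell had been sorted on Sca-1 protein. Tgm2, a transglutaminase, stood at 544 and 503 CPM in members, against 282 and 224 CPM in the others (2.08, 1.63 to 2.63). The tetraspanin Cd82 had a ratio of 2.02 (1.21 to 3.22; 0.964 to 2.38 over further thinnings) and Pdzk1ip1, the gene behind the MAP17 reporter of HSCs, one of 1.61 (1.15 to 2.21).

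Other stem cell surface genes lay nearer to 1 or rested on few UMIs. Kit, the stem cell factor receptor used in the sort, stood at 797 and 656 CPM in members, against 734 and 726 CPM in the other kept cells (ratio 0.988, 0.814 to 1.19). Esam, an adhesion molecule of HSCs, had a ratio of 1.12 (0.786 to 1.55), the integrin subunit Itga6 0.976 (0.672 to 1.38), the tetraspanin Cd9 0.972 (0.730 to 1.27) and the transporter Abcg2 0.748 (0.333 to 1.47). Itga6 ran higher over further thinnings, from 0.976 to 1.41 with a median of 1.19. Vwf, which marks platelet-biased HSCs, was at 63.3 and 120 CPM in members, against 48.0 and 55.9 CPM in the others (1.80, 0.979 to 3.10). Cd34, low on long-term HSCs, had a ratio of 0.879 (0.624 to 1.21). Flt3, which drives the Cre in the GFP mice, was seen with all UMIs in 10 members and 159 other kept cells, at 26.4 and 42.2 CPM (0.626, 0.319 to 1.12). Cd48, which the wild type sort excluded, was seen in 2 members and 62 others, at 4.40 and 14.6 CPM (0.302, 0.0359 to 1.13).

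The list of other genes often raised in HSC profiles gave 18 of 21 measured genes above 1 and a median log2 ratio of 0.55. Of 20 tested, 9 were called higher, against 8.54% of all 1850 genes. Ifitm1, an interferon-induced transmembrane protein, stood at 1430 and 1399 CPM in members, against 801 and 682 CPM in the other kept cells (ratio 1.92, 1.66 to 2.21). Txnip, an inhibitor of thioredoxin and of glucose uptake, stood at 3025 and 2448 CPM in members, against 1912 and 1503 CPM in the others (1.60, 1.45 to 1.77). Both rest on many UMIs, 241 and 463 in members, and had narrow ranges over further thinnings, 1.57 to 2.00 for Ifitm1 and 1.48 to 1.68 for Txnip. Sult1a1, a sulfotransferase, had a ratio of 2.57 (1.74 to 3.74) and Trim47, a RING finger protein, one of 2.10 (1.51 to 2.88). The cytokine feedback regulators Socs2 and Cish had ratios of 1.89 (1.15 to 2.99) and 1.76 (1.18 to 2.57). Angpt1, a ligand of the receptor TIE2, was near 1, with a ratio of 0.961 (0.764 to 1.20) and 0.972 to 1.17 over further thinnings.

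**Figure D2:**
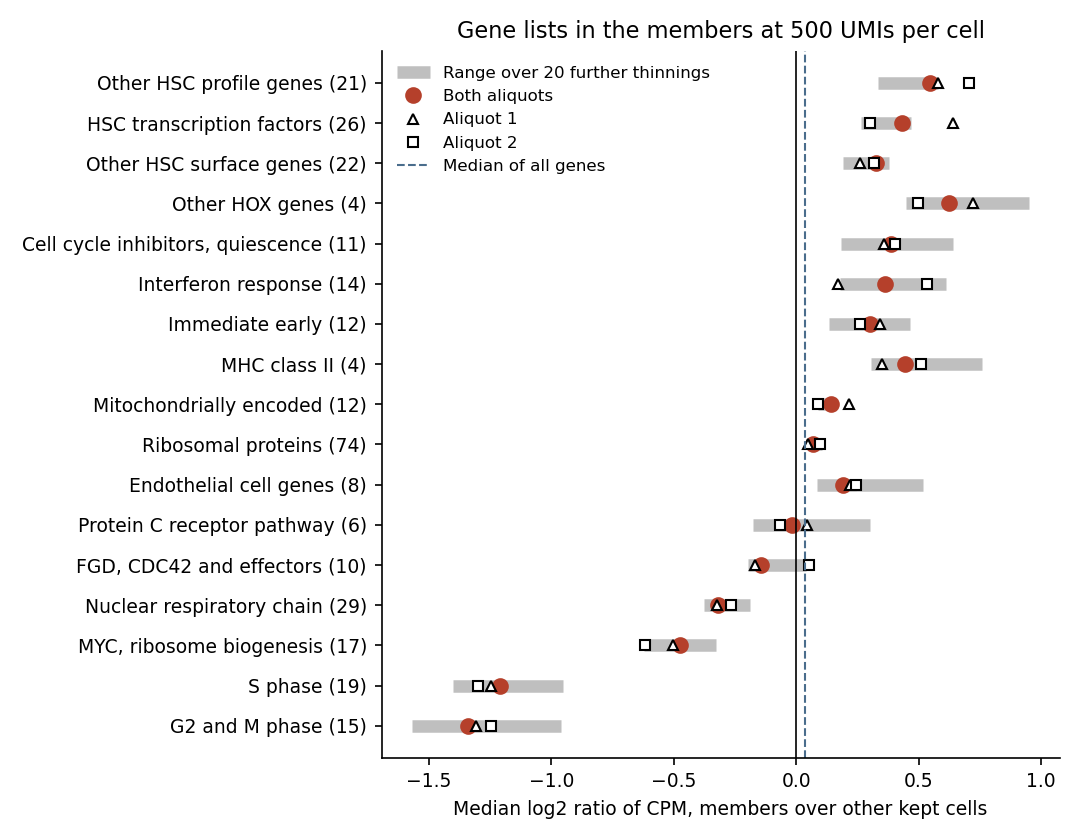
Median log2 ratio of CPM, members over other kept cells at 500 UMIs per cell, for 17 gene lists, with the number of measured genes in brackets. Red points pool both aliquots, open symbols are single aliquots, grey bars span 20 further thinnings, and the dashed line is the median of all genes (0.04). Stem cell lists lie to the right (0.32 to 0.55) and both cell cycle lists far to the left (-1.21 and -1.34).

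Cell cycle transcripts were lower in members, in both aliquots. All 19 measured S phase genes and all 15 measured G2 and M phase genes lay below 1, with median log2 ratios of -1.21 and -1.34. Of those tested, 11 of 11 S phase genes and 5 of 6 G2 and M phase genes were called lower, against 9.95% of all 1850 genes. Hmgb2, a chromatin protein of dividing cells, had the most UMIs. It stood at 468 and 295 CPM in members, against 1130 and 844 CPM in the other kept cells (ratio 0.385, 0.295 to 0.494). Mcm6, a subunit of the replicative helicase, stood at 354 and 186 CPM in members, against 561 and 455 CPM in the others (0.524, 0.379 to 0.708). Top2a, the topoisomerase of replicating and mitotic chromosomes, stood at 75.9 and 0 CPM in members, against 188 and 188 CPM in the others (0.187, 0.0681 to 0.412). Its ratio ran from 0.133 to 0.610 over further thinnings. Mki67, the proliferation antigen, had a ratio of 0.395 (0.168 to 0.794). The summed S phase list was 1873 and 1377 CPM in members, against 3679 and 3283 CPM in the others.

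Counted per cell at 500 UMIs, 62 of 341 members (18.2%, 14.2 to 22.7) held at least 2 S phase UMIs, against 1180 of 3061 other kept cells (38.5%, 36.8 to 40.3). At least 2 G2 and M phase UMIs were found in 11.4% of members (8.26 to 15.3), against 24.99% of the others (23.5 to 26.6). No UMI of either list was found in 34.3% of members (29.3 to 39.6), against 22.2% of the others (20.7 to 23.7). The intervals did not overlap in these 3 measures, and each aliquot gave the same order. Yet 18.2% of members still held S phase transcripts at this level, so they were not a set without cycling transcripts.

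**Figure D3:**
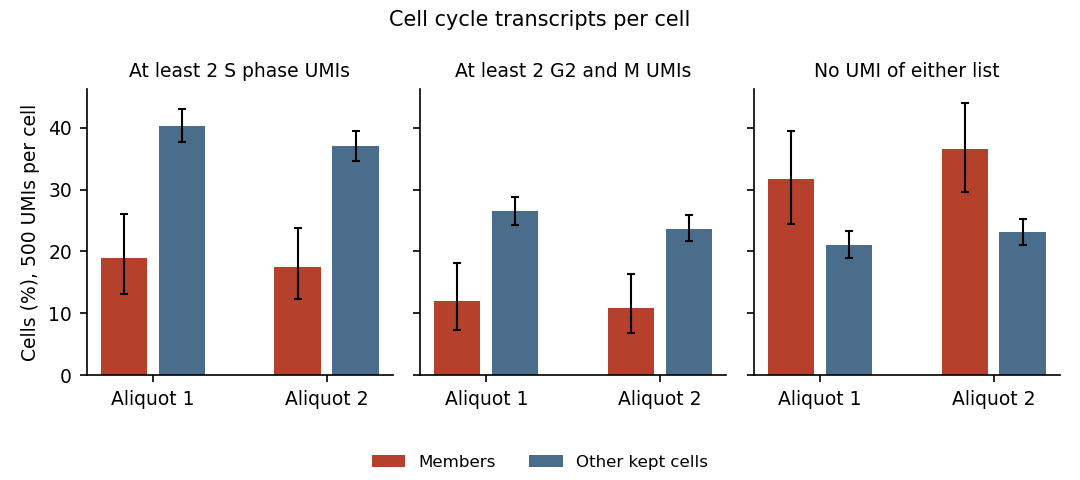
Share of cells (%) in each aliquot with at least 2 S phase UMIs, at least 2 G2 and M phase UMIs, or none of either list, at 500 UMIs per cell. Red bars are members, blue bars the other kept cells, and error bars are exact 95% intervals. In aliquot 2, 17.5% of members and 37.0% of the other kept cells held at least 2 S phase UMIs.

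Members were shallower, and shallow cells held fewer cycling transcripts, so the lists were read within depth ranges as well. Shallow cells also held more stem cell transcripts. From the shallowest range to the deepest, HSC transcription factors summed to 6647, 5810 and 5046 CPM in the other kept cells. Among cells of 500 to under 1000 UMIs the summed S phase level was 1764 CPM in 161 members and 2479 CPM in 931 other kept cells (ratio 0.712, 0.593 to 0.848). The ratio was 0.376 (0.298 to 0.469) from 1000 to under 2000 UMIs and 0.397 (0.292 to 0.526) from 2000 UMIs, where 59 members remained. The G2 and M phase ratios were 0.533, 0.439 and 0.388 in these ranges. The other HSC profile genes had summed ratios of 1.22, 1.41 and 1.69 in the same order. Every range kept its direction for these 3 lists, while the size differed. For HSC transcription factors the summed ratios were 1.21 (1.11 to 1.32), 1.14 (1.03 to 1.27) and 1.18 (1.003 to 1.37). The summed HOX ratios were 1.36 (0.972 to 1.87), 1.21 (0.766 to 1.85) and 2.92 (1.83 to 4.49) in the same ranges. Immediate early genes were at 1.12 (0.993 to 1.25), 1.07 (0.919 to 1.23) and 1.44 (1.18 to 1.74). For both of these lists the interval lay above 1 only from 2000 UMIs. Against other cells matched in depth the median of the S phase list was -0.69 and that of G2 and M phase -1.31 on the log2 scale. Dropping Procr from the choice, which replaced most of the cells, gave -0.45 and -0.84.

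**Figure D4:**
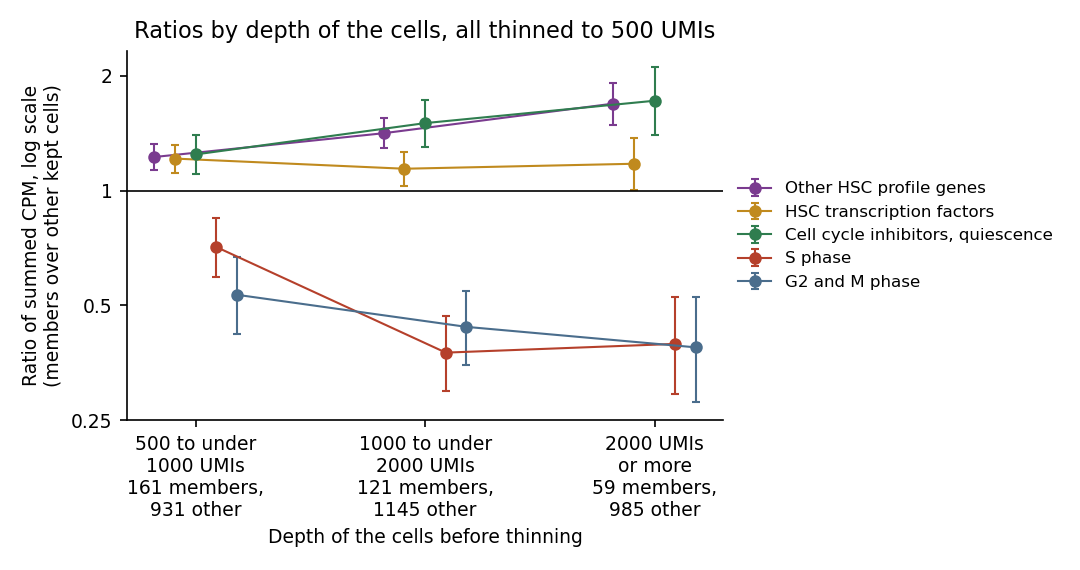
Ratio of summed CPM, members over other kept cells, on a log axis, for 5 gene lists in 3 ranges of cell depth, after thinning every cell to 500 UMIs. Bars are exact 95% intervals, and the numbers of cells stand under each range. The S phase ratio is 0.712 in the shallowest range and 0.376 and 0.397 in the deeper ones, and the other HSC profile genes run 1.22, 1.41 and 1.69.

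Genes that restrain the cycle were higher in members. Of 11 measured cell cycle inhibitor and quiescence genes, 9 lay above 1, with a median log2 ratio of 0.39. Of 6 tested, 4 were called higher, against 8.54% of all 1850 genes. Cdkn1c, the imprinted gene of the inhibitor p57 that keeps HSCs out of cycle, stood at 114 and 186 CPM in members, against 63.6 and 57.1 CPM in the other kept cells (ratio 2.54, 1.57 to 3.96; 1.67 to 2.92 over further thinnings). Cdkn1b, the gene of p27, had a ratio of 0.837 (0.407 to 1.55), and Ccnd1, the gene of cyclin D1, one of 0.362 (0.115 to 0.868) from 5 UMIs in members. Other imprinted genes were Grb10, an adaptor of growth factor receptors, at 1.71 (1.15 to 2.49), and Gnas at 1.09 (0.930 to 1.27). Grb10 ran lower over further thinnings, from 1.12 to 1.69. Igf2 and Dlk1, singled out after their values were seen and both under the 10-UMI minimum at 500 UMIs per cell, were read with all UMIs. Igf2, a growth factor of the same imprinted cluster as Cdkn1c, was in 24 of 341 members and 47 of 3061 other kept cells, at 70.4 and 10.9 CPM (6.44, 4.04 to 10.1). Dlk1, a non-canonical NOTCH ligand, was in 11 members and 27 others, at 24.2 and 6.71 CPM (3.61, 1.65 to 7.27). At 500 UMIs per cell the Igf2 ratio was 2.66 (1.04 to 6.02).

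Growth and biosynthesis genes were lower. Among MYC, nucleolar and ribosome biogenesis genes, 15 of 17 measured lay below 1, and the median log2 ratio was -0.47. Of 11 tested, 5 were called lower, against 9.95% of all 1850 genes. Myc itself stood at 190 and 153 CPM in members, against 345 and 235 CPM in the other kept cells (ratio 0.596, 0.394 to 0.868). Npm1, a nucleolar chaperone, stood at 1354 and 1322 CPM in members, against 1962 and 1677 CPM in the others (0.739, 0.643 to 0.847). Npm1 was nearer to 1 over further thinnings, from 0.760 to 0.871. Nme1, a nucleoside diphosphate kinase, had a ratio of 0.423 (0.229 to 0.721). Nuclear genes of the respiratory chain had a median of -0.32, with 22 of 29 below 1, where 1955 of all 4175 genes were. Of 23 tested, 4 were called lower, against 9.95% of all 1850 genes. The summed ratio of the list was 0.870. The transcripts that mitochondria encode themselves ran the other way, with 10 of 12 above 1 and a median of 0.14. Median mitochondrial shares of the cells were 5.99% and 5.23% in members of aliquots 1 and 2, against 5.19% and 4.73% in the others; their part in these ratios was not tested. Ribosomal protein genes, which have many near-identical copies, had a median of 0.07 over 74 genes.

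Immediate early genes, which respond within minutes to signals and to cell handling, had a median log2 ratio of 0.30, with 11 of 12 above 1. Egr1, a zinc finger factor of this group known to hold HSCs in their niche, stood at 633 and 350 CPM in members, against 270 and 240 CPM in the other kept cells (ratio 1.90, 1.48 to 2.41). Fos and Jun, subunits of the factor AP-1, were at 0.816 (0.566 to 1.14) and 1.09 (0.913 to 1.30). Interferon response genes had a median of 0.36, with 11 of 14 above 1. Of 8 tested, 2 were called higher, against 8.54% of all 1850 genes. These were the GTPase Gbp2 (1.69, 1.08 to 2.54) and Ifitm1, already counted among the other HSC profile genes. The related Ifitm2 was called lower, at 0.665 (0.400 to 1.05). This call depended on the draw, since further thinnings gave 0.591 to 0.986 with a median of 0.782. All 4 MHC class II genes lay between 1.23 and 1.39, and none was called.

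Lists of partners of Procr, Fgd5, Slamf1 and Neo1 had median log2 ratios of -0.16 to -0.02, but some hold very few measured genes. Of 6 measured genes of the protein C receptor pathway, 3 lay above 1, with a median log2 ratio of -0.02 and none called. In this pathway S1pr1, a sphingosine 1-phosphate receptor, had 17 UMIs against 6.9 expected in members (ratio 2.46, 1.35 to 4.26), while F2r, the thrombin receptor, had a ratio of 0.548 (0.232 to 1.11). Of 10 measured FGD exchange factors, CDC42 and its effectors, 4 lay above 1, with a median of -0.14. Cdc42 itself stood at 481 and 415 CPM in members and 582 and 471 CPM in the other kept cells (0.854, 0.666 to 1.08). The 3 measured SLAM family members and adaptors, Cd84, Fyn and Inpp5d, had ratios of 0.977, 0.898 and 0.789. The 2 measured neogenin partners, Rhoa and Bmpr2, had ratios of 0.937 and 0.921. The neogenin ligand genes Ntn1, Ntn4 and Rgma were at 0 UMIs in members at 500 UMIs per cell. Each had fewer than 10 UMIs expected there, so these zeros are not read as a difference. Of the C-type lectin genes near Clec1a, Clec2d alone was measured, at 316 and 230 CPM in members, against 175 and 207 CPM in the others (1.40, 1.01 to 1.92).

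Markers of other cell types differed by type. Of 20 neutrophil and granulocyte genes, 13 were at 0 in members at 500 UMIs per cell, among them S100a8, S100a9, Elane and Ctsg, and the summed list was 481 and 568 CPM in members, against 2641 and 2479 CPM in the other kept cells (ratio 0.207, 0.166 to 0.255). A few cells carried this gap: with the 51 granulocyte-rich cells, set by these and basophil genes and none of them a member, left out of the other kept cells, those stood at 592 and 619 CPM (0.870, 0.693 to 1.08). The share of cells with a UMI of the list was 21.7% in members (17.4 to 26.5) and 24.8% in the other kept cells (23.3 to 26.4). With all UMIs S100a9 had 1 UMI in members and 3447 UMIs in 67 of the others. With granulocyte-rich cells removed before the choice, which gave 336 members and 3015 other kept cells, the S phase and G2 and M phase medians were -1.16 and -1.25. Since Procr, Fgd5 and Clec1a are also known from endothelium, endothelial genes were read as well. Of 30 listed, 10 were at 0 in members at 500 UMIs per cell, and with all UMIs the defining genes Cdh5, Plvap and Stab2 were at 0 UMIs in members, against 1, 5 and 4 in the others, and Flt1 and Cldn5 at 1 UMI each, against 12 and 18. At these counts less than 2 UMIs were expected in members for each gene, so the zeros do not show a difference. The 8 measured endothelial genes, of which 5 also stand on the HSC lists, had a median log2 ratio of 0.19, and the summed list was 1203 and 1257 CPM in members, against 1041 and 1055 CPM in the others. Monocyte marker Csf1r, T cell marker Cd3e, B cell marker Cd79a and Cxcl12 of stroma were at 0 in members with all UMIs, but the others held only 28, 3, 3 and 10 UMIs of them. The summed list of T, NK and innate lymphoid genes was 177 and 197 CPM in members, against 136 and 160 CPM in the others, and the erythroid list 1633 and 1650 CPM, against 2099 and 1623 CPM. Megakaryocyte and platelet genes split. The summed list was 3835 and 3924 CPM in members, against 3637 and 3368 CPM in the others. Of 10 genes tested 3 were called higher and 1 lower, against 8.54% and 9.95% of all 1850 genes. A place on this list does not make a gene particular to platelets, and 4 of the 13 measured also stand on the HSC lists. Serpina3g, a serine protease inhibitor, had a ratio of 1.58 (1.22 to 2.03) and Zfpm1, the GATA cofactor FOG1, one of 1.57 (1.07 to 2.24). Further thinnings gave 1.20 to 1.76 for Serpina3g but 0.894 to 1.59 for Zfpm1, with a median of 1.15, so the Zfpm1 call depended on the draw. Pf4, platelet factor 4, was at 24.2 CPM in members, against 126 CPM in the others with all UMIs (0.192, 0.0956 to 0.347), and the integrin Itga2b had a ratio of 0.332 (0.132 to 0.699) at 500 UMIs per cell. The erythroid and megakaryocyte factor Gata1 was at 6.60 CPM in members, against 41.4 CPM in the others (0.159, 0.0326 to 0.472).

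The 12 genes with the highest ratios came from few UMIs each, and picking the top of 1850 overstates them. Slc16a9, a monocarboxylate transporter family member, led with 25 UMIs in 21 members at 139 and 153 CPM, against 36.7 and 30.4 CPM in the other kept cells (ratio 4.40, 2.61 to 7.23; 1.58 to 4.97 over further thinnings). Arhgef5, a guanine nucleotide exchange factor, followed at 3.37 (1.94 to 5.65; 1.45 to 3.26 over further thinnings). The others were Yy1, Maged2, Vrk3, Tmx4, B4galt6, Nkx2-3, Sult1a1, St8sia4, Cdkn1c and Net1. Of the 12, Yy1 (0.861 to 2.34) and Tmx4 (0.957 to 2.11) had thinnings below 1, so their high place is a feature of 1 draw. Net1, another exchange factor, was steadier, at 165 and 164 CPM in members and 72.0 and 66.9 CPM in the others (2.37, 1.50 to 3.62; 1.76 to 2.99 over further thinnings).

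The 12 lowest ratios were led by Top2a and Plac8, and picking the bottom of 1850 can overstate them too. Over further thinnings Top2a had a median of 0.327 (0.133 to 0.610), above the median of 0.206 for Plac8. Plac8, high in multipotent and myeloid-primed progenitors, stood at 139 and 0 CPM in members and 316 and 282 CPM in the other kept cells (0.217, 0.107 to 0.391; 0.153 to 0.311 over further thinnings). Lyz2, the lysozyme gene of myeloid cells, stood at 241 and 186 CPM in members, against 534 and 603 CPM in the others (0.370, 0.257 to 0.516). Cell cycle genes made up part of the rest, with Cks2, Cks1b and Usp1, beside Itga2b, the ribosome biogenesis gene Rsl1d1, the oligosaccharyltransferase subunit Rpn1, the splicing factor Srsf7, the nucleotide-pool enzyme Dctpp1 and the uncharacterised 2700094K13Rik. Only 2700094K13Rik among these 12 reached 1 over further thinnings (0.525 to 1.10).

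**Figure D5:**
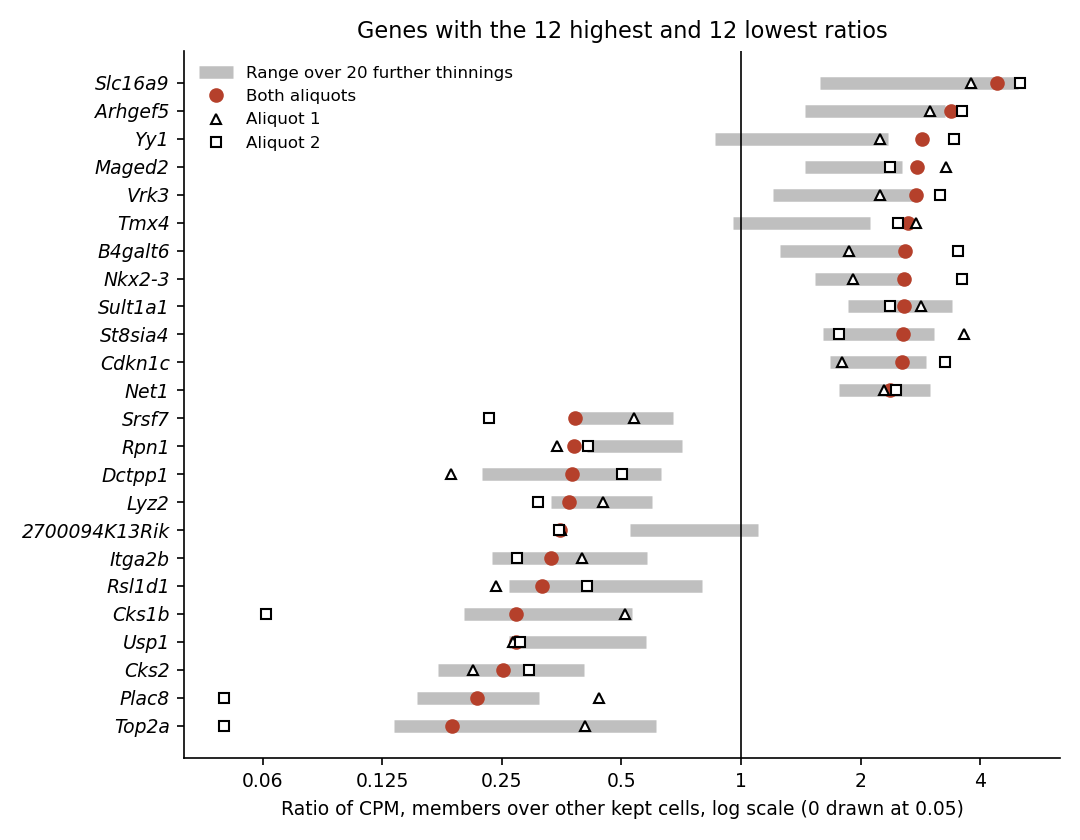
Ratio of CPM, members over other kept cells, on a log axis, for the genes with the 12 highest and 12 lowest ratios at 500 UMIs per cell. Red points pool both aliquots, open triangles and squares are aliquots 1 and 2, and grey bars span 20 further thinnings. Slc16a9 stands at 4.40 with a range of 1.58 to 4.97, and Plac8 at 0.217 with a range of 0.153 to 0.311.

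Other kept cells with a UMI of the 6 genes, but with a share under the threshold, lay between on 5 lists picked from 35. This grading rests on the same 6 genes as the choice. The share depends on depth, and these cells were deeper than members. The part of depth was not tested. Relative to the 2583 kept cells without any such UMI (median 1346 UMIs), the summed S phase list was at 0.447 (0.394 to 0.505) in members (median 1061 UMIs) and at 0.769 (0.708 to 0.835) in these 478 cells (median 1998 UMIs). The G2 and M phase list was at 0.395 and 0.716 in the same order, the quiescence list at 1.54 and 1.18, the other HSC profile genes at 1.46 and 1.13, and HSC transcription factors at 1.25 and 1.08. None of the intervals of members and of these cells overlapped for the 5 lists, but this was not particular to them. Intervals were also apart on lists outside the 5, such as MHC class I genes and transcripts encoded by mitochondria. On others, such as immediate early genes, they overlapped. The HOX genes did not lie between, at 1.60 (1.28 to 2.00) in members and 0.922 (0.717 to 1.17) in the 478 cells. Other lists did not lie between either. Among them were MHC class I genes (1.14 in members and 0.967 in the 478 cells) and endothelial genes (1.17 and 0.964). Genes of multipotent and lymphoid progenitors were at 0.932 and 0.826.

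Within the members most lists had overlapping intervals when members were split by the evidence behind membership. Overlap does not show likeness, since some lists held few UMIs, such as B cell genes with 2 UMIs and 1 in the split by UMIs. Depth differed too: the median was 1647 UMIs in members with 2 or more UMIs and 729.5 in those with 1. It was 1666.5 and 859 by number of genes, and 1293.5 and 857 with and without Procr. The part of depth in these ratios was not tested. Of 35 lists, 33 overlapped between members with 2 or more UMIs and members with 1, 32 between members with 2 or more of the genes and members with 1, and 32 between members with Procr and members without it. The 227 members with 2 or more UMIs had a summed ratio to cells without any of 1.45 (1.36 to 1.55) for the other HSC profile genes, and the 114 with 1 UMI had 1.48 (1.35 to 1.61). The S phase ratios were 0.412 (0.351 to 0.480) and 0.517 (0.423 to 0.627) in the same order. The 254 members with Procr and the 87 without it had 1.45 and 1.50 for the other HSC profile genes, S phase ratios of 0.409 and 0.556, and ratios of 0.430 and 0.295 for the G2 and M phase list. The intervals of these 3 pairs overlapped. The 88 members with 2 or more of the genes had ratios of 1.58 (1.43 to 1.74) for the other HSC profile genes and 1.39 (1.25 to 1.53) for the HSC surface list, and the 253 with 1 gene had 1.42 (1.33 to 1.51) and 1.20 (1.13 to 1.28). The endothelial list was at 1.59 (1.24 to 2.02) in the 88 and 1.02 (0.848 to 1.22) in the 253, and the protein C receptor pathway at 0.691 (0.498 to 0.935) and 1.10 (0.941 to 1.27), neither pair overlapping. Immediate early genes were at 1.11 (1.01 to 1.23) in members with Procr and 1.53 (1.33 to 1.76) in those without it, and genes of multipotent and lymphoid progenitors at 0.821 (0.701 to 0.955) and 1.26 (1.01 to 1.54). Ribosomal protein genes were apart in all 3 splits, and transcripts encoded by mitochondria in that by UMIs, at 1.06 (1.03 to 1.09) with 2 or more and 1.21 (1.17 to 1.25) with 1. By marker, the other HSC profile genes ran from 1.41 in the 47 members with Clec1a to 1.77 in the 27 with Neo1, with overlapping intervals.

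Reporter transcripts, left out of the choice, were seen in 10 of 341 members (2.93%, 1.42 to 5.33) and in 61 of 3061 other kept cells (1.99%, 1.53 to 2.55). The shares were 2.53% and 3.28% in members of aliquots 1 and 2, against 1.34% and 2.55% in the others, and the intervals overlapped. The summed level was 37.4 CPM in members and 20.5 CPM in the others, from 17 and 107 UMIs (ratio 1.82, 1.02 to 3.06). Read the other way, 10 of the 71 kept cells with a reporter UMI were members (14.1%, 6.97 to 24.4), against 331 of the 3331 without one (9.94%, 8.94 to 11.0). The source of a cell that held no reporter UMI, GFP sort or wild type sort, cannot be told apart.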

How the data were processed

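The submitters' files hold raw UMI counts per gene and barcode, deposited without normalization, for 28206 features of which 26589 symbols matched the gene table used for names. The build is GRCm38, and RSEM 1.3.0, Bowtie 1.1.1 and SAMtools 1.3.1 are the tools listed, without settings, per the submitters' processing notes; not given in the sources used here is how reads of near-identical genes were divided. For GFP the authors used the sequence of its cassette, per the labels. Cells, members, thinning and calls were defined as in the results (seed 1, and 20 further draws), with numpy 2.4.6 and scipy 1.17.1. List medians use genes that reached 10 UMIs, observed or expected, among members, and a count of 0 is set to 3 counts. Doublets were scored with Scrublet in scanpy 1.11.5 at an expected rate of 6% and not removed. Interval code was tested on simulated data. Genes named are the 6 markers, the measured genes of the stem cell and partner lists, the 12 highest and 12 lowest ratios, leading genes of other lists and defining markers at 0. Some results are not reported here. The members, lists and alternatives were chosen with earlier results of these data known. In all, 25 alternatives were tried, and 1 more for the granulocyte list, including cell and gene filters, the share of cells chosen, depth, each marker left out and each aliquot left out.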

Additional observations from a re-analysis of the deposited data

How the results depend on the processing

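With 1 pool no spread between biological samples exists, and counts of members limit all ratios of single genes. No paired analysis was possible because both aliquots belong to 1 pool and 1 group. The median of the HSC transcription factor list stayed between 0.21 and 0.54 on the log2 scale, and no alternative turned the direction of the 4 main list medians or of the Neo1 and Procr ratios with those genes left out. With other kept cells restricted to those without a UMI of the 6 genes, the left-out comparison has no value. The alternatives without shared barcodes, with Procr alone and with granulocyte-rich cells left out of the other kept cells only were added after the data had been seen; the last moved the summed granulocyte ratio from 0.207 to 0.870.

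Log2 medians below are for the other HSC surface list, the S phase list and the G2 and M phase list, whose main values were 0.32, -1.21 and -1.34. With at least 1000 UMIs per cell, 96 genes were called higher and 119 lower, and the surface and G2 and M medians were 0.42 and -1.14. With at most 10% mitochondrial UMIs the S phase median was -1.15. Choosing the top 5% of cells gave 59 higher and 62 lower calls and medians of 0.42, -0.97 and -1.22. Choosing the top 20% gave 265 and 289 calls, with S phase at -0.93 and G2 and M at -1.46. Members chosen by at least 2 of the 6-gene UMIs at 500 UMIs per cell gave 19 and 19 calls, medians of 0.43, -1.59 and -0.90, and a reporter share of 5.41%. At 1000 UMIs per cell 66 genes were called higher and the medians were 0.47, -1.59 and -1.09. Without thinning 462 genes were called higher and 569 lower, with 0.45, -1.33 and -1.40. Another thinning gave 0.39, -1.12 and -1.26. Without a UMI minimum per gene there were 409 and 436 calls, with 0.19 for the surface list and -1.06 for S phase; minimums of 50 and 20 gave 18 and 36 calls, with 0.28 and -1.01.

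Other cells matched in depth gave 0.26 for the surface list and -0.69 for S phase, and other cells without a UMI of the 6 genes gave -1.40 for G2 and M. Leaving out granulocyte-rich cells gave 0.28, -1.16 and -1.25, and leaving out cells with a GFP UMI gave -1.52 for G2 and M. Dropping Procr from the choice gave 90 and 104 calls, -0.45 and -0.84 for the cycle lists and a reporter share of 5.47%. The S phase and G2 and M medians were -1.29 and -1.25 without Fgd5, -1.03 and -1.25 without Slamf1, -1.06 and -1.24 without Hoxb5, and -1.28 and -1.82 without Clec1a. Without Neo1 the surface and S phase medians were 0.25 and -1.15. Leaving out either aliquot gave 61 to 85 higher calls and 75 lower calls at its own minimum, surface medians of 0.24 to 0.43, G2 and M medians of -1.52 to -1.27 and S phase medians of -1.21 to -0.90. Without barcodes found in both libraries the surface median was 0.37 and that of G2 and M -1.18. With Procr alone as the rule the medians were 0.27, -1.29 and -1.39.

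Lists near 0 changed sign. The megakaryocyte median, -0.04, was 0.022 with at least 1000 UMIs per cell, 0.20 for the top 5%, 0.14 for members with at least 2 UMIs, 0.012 at 1000 UMIs per cell, 0.022 against cells without a marker UMI, 0.17 without Procr and 0.0073 without Clec1a. The neogenin partner median, -0.11, was 0.29 for the top 5%, 0.020 under another thinning, 0.58 without a minimum and -0.23 to 0.040 when leaving out either aliquot. The heat shock median, -0.11, was 0.013 for members with at least 2 UMIs, 0.020 against depth-matched cells and 0.012 without Procr. The stroma median, -0.33, was 0.40, 0.12 and 0.67 with at least 1000 UMIs per cell, at 1000 UMIs and without a minimum. The glycolysis median, -0.17, was 0.00038 with at least 1000 UMIs per cell, MHC class I, 0.11, was -0.084 for the top 5%, the C-type lectin value, 0.49, was -0.0018 at 1000 UMIs per cell, and the basophil value, -2.72, was 0.75 without a minimum. Of single genes, the Cdkn1c ratio was 0.775 for members with at least 2 UMIs, and Yy1 and Tmx4 stood at 0.736 and 0.842 when Procr was dropped. The cause of these changes was not tested.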
